A study of Mus musculus with 18 samples.

Results

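Granins and dense-core vesicle genes were followed in mice lacking palmitoyl protein thioesterase-1 (Ppt1), a lysosomal thioesterase that cleaves fatty acyl groups from proteins and is the gene product missing in the infantile form of neuronal ceroid lipofuscinosis. The members were 10 genes, selected on earlier genotype and age differences of these same signals: the granins Scg2, Scg3, Scg5, Chga, Chgb and Vgf, the processing enzymes Pcsk1, Pcsk2 and Cpe, and the secreted pentraxin Nptx2. Every probe set whose platform symbol was one of these names was taken. That gave 11 probe sets for 9 of the 10 genes, out of 45101 probe sets on the array, and 10 of the 11 passed the filter on low values. Pcsk2 is not analysed here, because no probe set carried its symbol.

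The 18 samples were total RNA from Ppt1 knockout mice at 3, 5 and 8 months and from wild-type mice at the same 3 ages, with 3 samples in each of the 6 groups, hybridised to 1-colour Affymetrix mouse arrays. Each group held 1 male and 2 females, except the 8-month knockouts with 2 males (replicates 1 and 3) and 1 female. The strain, the targeted allele and whether a sample is 1 mouse were not given in the sources used here, so p-values measure only the spread between these samples. The tissue label names both brain and cochlea. All 7 cortical neuron, 6 striatal neuron and 8 cerebellar markers with a probe set were above background on all 18 arrays, so brain markers were present. Of 13 cochlear markers, 3 were above it on all 18 and 0 were at background on all 18, so a share of cochlea was not settled. Pituitary, another tissue rich in granins, was poorly represented: 2 of 11 markers were above background on all arrays. Among its glycoprotein hormone subunits, Cga and Fshb were at background on all 18, but Tshb on 9 and Lhb on 8. Growth hormone, Gh, was at background on 9.

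Granins are acidic proteins that aggregate in the trans-Golgi network and help form dense-core vesicles, the organelles in which neurons and endocrine cells store neuropeptides and neurotrophins. Inside the vesicle, prohormone convertases cut precursors at paired basic residues, and carboxypeptidase E trims the basic residues left behind. Several granins are themselves cut into active peptides, among them secretoneurin from Scg2 and several peptides from Vgf. Transcription of some granins follows neuronal activity and cyclic AMP through the cyclic AMP response element, a short palindrome bound by CREB.

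That element is shown in the members' promoters as a description of their sequence, and its part in any change was not tested. Of the 3 members found to hold the full palindrome, Scg2 and Pcsk1 overlapped wild type at every age. Chgb, also among them, overlapped it at 3 months and lay above it at 5 and 8 months. No promoter was matched for Vgf, Cpe and Nptx2, so nothing about the element is read from these overlaps. Promoter sequences from RefSeq (build GRCm38.p6) were matched for 7 of the 10 genes, namely Scg2, Scg3, Scg5, Chga, Chgb, Pcsk1 and Pcsk2. Both strands of the 250 bases before each start were searched for the full palindrome TGACGTCA and for its core TGACG, whose reverse complement is CGTCA, and the palindrome contains both. The full palindrome lay in 3 of the 7, Scg2, Chgb and Pcsk1, beginning 68, 72 and 78 bases before the start. The starts used for Pcsk1 and Scg3 lie inside the annotated genes (chr13:75089420-75134861 and chr9:75643366-75685959), not at their 5′ ends. Across all 32851 promoters in the table, 508 (1.55%) held it. The core lay in all 7, against 5836 promoters (17.8%). The matches are letters in a window and were not tested for binding. Capitals mark the motif in the following lines, which run 5′ to 3′ on the gene's strand and cover chr1:79440027-79440126 (minus) for Scg2, chr2:132781542-132781641 (plus) for Chgb and chr12:102554841-102554940 (plus) for Chga, each ending at the last base before the start. Shorter stretches follow, chr13:75089768-75089797 (plus) for Pcsk1 and chr9:75684068-75684097 (minus) for Scg3.
Scg2: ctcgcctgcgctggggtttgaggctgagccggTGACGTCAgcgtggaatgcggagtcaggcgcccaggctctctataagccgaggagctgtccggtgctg
Chgb: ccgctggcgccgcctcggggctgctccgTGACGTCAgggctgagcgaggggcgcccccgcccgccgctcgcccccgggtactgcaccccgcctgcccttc
Chga: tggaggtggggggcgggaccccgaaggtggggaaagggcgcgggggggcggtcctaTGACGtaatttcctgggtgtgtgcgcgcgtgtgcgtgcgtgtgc
Pcsk1: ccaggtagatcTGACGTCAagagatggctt
Scg3: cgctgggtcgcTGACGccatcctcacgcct

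The arrays were comparable in scale, with a trimmed mean signal of 150 on each and array medians of 43.2 to 46.1. Ppt1 itself read 0.880 to 23.4 on the 9 knockout arrays and 543 to 629 on the 9 wild-type arrays, which matched the labels. The 8-month knockout arrays were the least alike, with a mean correlation to their own group of 0.961 to 0.969 over probe sets, against at least 0.979 elsewhere. Their ratio of 5′ to 3′ actin signal was 0.432 to 0.482, against 0.501 to 0.525 in 8-month wild types. At 5 months the ratio was 0.389 to 0.473 in knockouts, against 0.412 to 0.499 in wild types. The part of these RNA-quality differences in the 5- and 8-month results was not tested. Signals below are the deposited intensities, and log2 changes are differences of log2(signal + 16), knockout minus wild type unless stated, with standard errors from a limma fit over all groups with sex as a term. The members were chosen with these contrasts known, so their changes are descriptions.

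At 3 months no member stood above wild type, and by 8 months most did. Scg3, Chgb, Cpe, Vgf and the brighter Nptx2 probe set were higher in 8-month knockouts on every array, while Scg5 was lower, and Scg2, Chga, Pcsk1 and the dimmer Nptx2 probe set overlapped. With 1 probe set a gene, the members' median change over the 3 ages was -0.11, -0.08 and 0.30 (9 genes), against 0.00, 0.01 and -0.02 over all genes. At an adjusted p below 0.05 (limma, Benjamini-Hochberg over 27025 probe sets), 6 of the 10 probe sets passed at 8 months, where 11.6% of all tested probe sets did. Without 8-month knockout replicates 1 and 2, which leaves 1 array, only Scg5 passed, and Scg3, Chgb, Vgf, Cpe and Nptx2 had changes of 0.30, 0.24, 0.35, 0.33 and 0.63. At 5 months 2 passed, Scg3 and Scg5, where 2.2% did, and each fell short in 5 of the 18 fits that left out 1 array. At 3 months 0 passed, where 0.955% did, and 2 had an unadjusted p under that level. For the mean over ages 2 passed, Scg3 higher and Scg5 lower, where 12.6% did. Nothing is read from these counts, since the rule used the same contrasts. Groups did not overlap for 4 of the 10 at 3 months, 4 at 5 months and 6 at 8 months, where 18.4%, 20.3% and 26.0% of all probe sets did not.

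**Figure D1:**
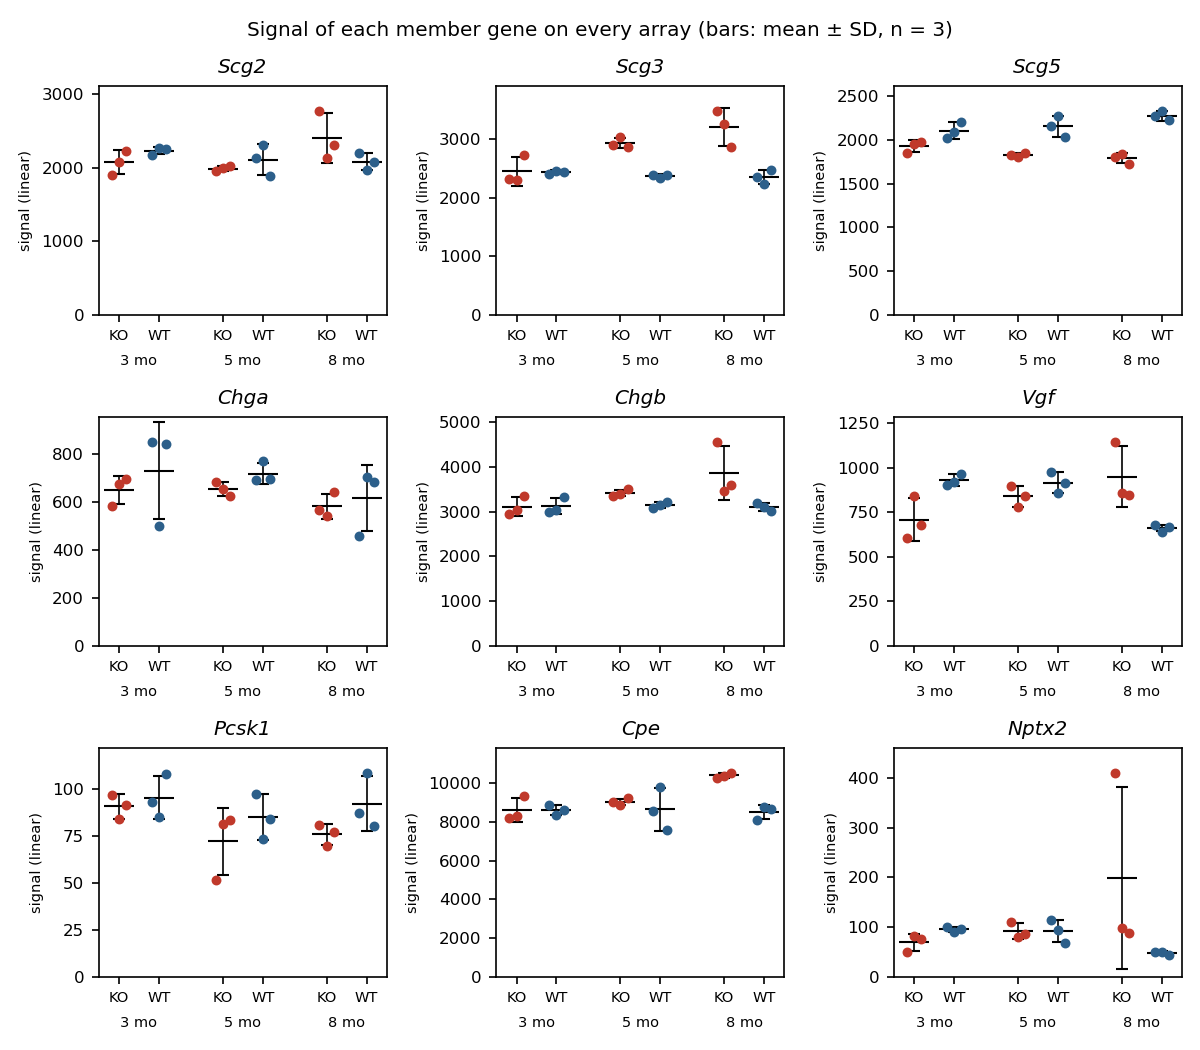
Linear signal, on axes from 0, of the brightest probe set of each of 9 member genes, with knockout (red) left of wild type (blue) at 3, 5 and 8 months. Points are arrays and bars are the mean ± SD (n = 3), and the 8-month knockout values of Nptx2 are 411.1, 98.1 and 88.0.

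**Figure D2:**
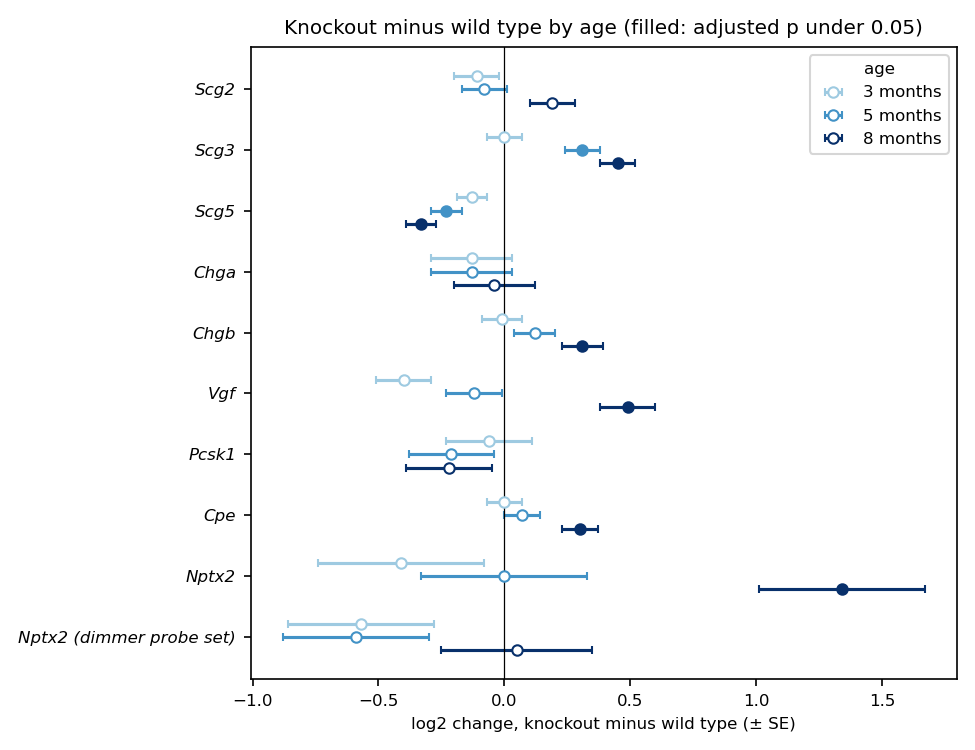
Log2 change, knockout minus wild type, of each tested member probe set at each age, with its standard error, filled where the adjusted p was under 0.05 (limma). Scg3 lies at 0.00, 0.31 and 0.45 over the 3 ages, Scg5 at -0.13, -0.23 and -0.33, and Vgf at -0.40, -0.12 and 0.49.

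Scg3, which binds chromogranin A and the cholesterol-rich vesicle membrane, was higher in knockouts from 5 months on. Its signal was 2316, 2301 and 2728 in 3-month knockouts, against 2399, 2462 and 2447 in wild types. At 5 months the signal was 2905, 3032 and 2874.5 in knockouts, against 2391, 2331 and 2380.1 in wild types. At 8 months the signal was 3489.9, 3266 and 2861 in knockouts, against 2357, 2229 and 2465 in wild types. The groups overlapped at 3 months and were apart at 5 and 8 months, with all knockout arrays higher. The log2 change was 0.31 ± 0.07 at 5 months and 0.45 ± 0.07 at 8 months, and the 8-month effect exceeded the 3-month effect by 0.45 ± 0.10. Wild types hardly differed between 8 and 3 months (-0.05 ± 0.07), whereas knockouts differed by 0.40 ± 0.07. The difference between ages fell short of the threshold in 11 of the 18 fits that left out 1 array, with values of 0.38 to 0.48.

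Scg5 encodes 7B2, the chaperone that prohormone convertase 2 needs for its maturation, and it moved the other way. It read 1848, 1948 and 1979.6 in 3-month knockouts, against 2023, 2084 and 2208 in wild types. The 5-month values were 1823, 1808 and 1852 in knockouts, against 2156, 2273 and 2028 in wild types. The 8-month values were 1805.5, 1841 and 1727 in knockouts, against 2269.8, 2335 and 2222 in wild types. Every knockout array was below every wild-type array of its age. The difference was -0.13 ± 0.06, -0.23 ± 0.06 and -0.33 ± 0.06 at the 3 ages, and widened by -0.20 ± 0.08 between 3 and 8 months, a step that did not pass the threshold. Scg5 was also the member with the smallest scatter within groups, a residual SD of 0.0507 log2 units, against a median of 0.190 over all tested probe sets.

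Chgb, chromogranin B, and Cpe, carboxypeptidase E, were higher in 8-month knockouts. Chgb read 2945, 3032 and 3356 in 3-month knockouts, against 2991, 3046 and 3336 in wild types. Arrays at 5 months gave 3359, 3396 and 3500.3 in knockouts, against 3071, 3141.5 and 3208 in wild types. Arrays at 8 months gave 4567, 3459 and 3588 in knockouts, against 3190.1, 3107 and 3021 in wild types. The knockout arrays lay above wild type at 5 and 8 months, and 1 of them, 8-month replicate 1, stood far above the others. The 8-month change was 0.31 ± 0.08, and 0.19 without that array, no longer past the threshold (limma, adjusted p = 0.0949). It also missed the threshold without wild-type replicate 2 (0.31) or 3 (0.29).

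Cpe read 8212, 8330.0 and 9325 in 3-month knockouts, against 8900.3, 8368 and 8636 in wild types. At 5 months Cpe read 9019.8, 8904 and 9231.5 in knockouts, against 8551, 9821.5 and 7600.5 in wild types. At 8 months Cpe read 10301, 10392 and 10563 in knockouts, against 8106, 8761 and 8696 in wild types. The 8-month knockouts were the highest 3 of all 18 arrays and differed little among themselves. The change was 0.30 ± 0.07 at 8 months, but 0.13 ± 0.04 after quantile normalization. Without 8-month wild-type replicate 1 it was 0.26 and missed the threshold (limma, adjusted p = 0.0731). A dim Cpe probe set was at background on 7 of 18 arrays and was left out by the filter.

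Scg2, secretogranin II and the precursor of secretoneurin, was not separated from wild type at any age. It read 1905, 2074 and 2233 in 3-month knockouts, against 2175, 2267 and 2249 in wild types. The 5-month signal was 1950.1, 1989.9 and 2024 in knockouts, against 2130.2, 2308 and 1885 in wild types. The 8-month signal was 2777, 2125.5 and 2303 in knockouts, against 2195, 1968 and 2080.1 in wild types. The groups overlapped each time, and the highest of the 18 was 8-month knockout replicate 1. The changes were -0.11 ± 0.09, -0.08 ± 0.09 and 0.19 ± 0.09.

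Chga, chromogranin A, was scattered in wild types. It read 585.6, 675.7 and 695.6 in 3-month knockouts, against 854.1, 499.2 and 842.8 in wild types. Values at 5 months were 684.4, 654.9 and 624.3 in knockouts, against 691.0, 771.0 and 696.7 in wild types. Values at 8 months were 568.8, 540.9 and 640.8 in knockouts, against 459.1, 705.8 and 686.2 in wild types. Only the 5-month groups were apart, and the change there, -0.13 ± 0.16, was within its error. Pcsk1, prohormone convertase 1/3, was a dim probe set whose groups overlapped at all 3 ages. In 3-month knockouts the signal was 96.8, 83.8 and 91.2, against 92.9, 84.9 and 107.8 in wild types. In 5-month knockouts the signal was 51.6, 81.2 and 83.3, against 97.3, 73.0 and 84.1 in wild types. It read 80.8, 69.4 and 76.8 in 8-month knockouts, against 87.2, 108.6 and 80.3 in wild types, a change of -0.22 ± 0.17.

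Vgf, a granin-like precursor induced by neurotrophins and activity, changed sides with age. It read 607.8, 841.2 and 677.3 in 3-month knockouts, against 905.3, 921.0 and 967.8 in wild types. At 5 months Vgf read 898.8, 778.4 and 841.4 in knockouts, against 974.2, 857.8 and 916.6 in wild types. At 8 months Vgf read 1147.8, 857.5 and 846.3 in knockouts, against 678.6, 641.2 and 666.6 in wild types. All knockouts were below wild type at 3 months and above it at 8 months. The changes were -0.40 ± 0.11, -0.12 ± 0.11 and 0.49 ± 0.11, and the 8-month effect exceeded the 3-month effect by 0.89 ± 0.16. The change from 3 to 8 months was 0.40 ± 0.11 in knockouts, all higher at 8 months, and -0.48 ± 0.11 in wild types, all lower at 8 months. Without 8-month knockout replicate 1, the 8-month change was 0.36 and the knockout step of 0.27 no longer passed (limma, adjusted p = 0.18), while the 3-month change and the wild-type step, unaltered in size, then passed.

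Nptx2, neuronal pentraxin 2, clusters AMPA receptors at excitatory synapses and is an activity-regulated gene. Its brighter probe set read 50.5, 81.0 and 75.0 in 3-month knockouts, against 100.3, 90.1 and 96.1 in wild types. At 5 months Nptx2 read 109.7, 79.3 and 85.9 in knockouts, against 113.7, 94.4 and 68.6 in wild types. At 8 months Nptx2 read 411.1, 98.1 and 88.0 in knockouts, against 50.4, 50.7 and 44.6 in wild types. Like Vgf it lay below wild type at 3 months and above it at 8 months, where the wild types were also below their own 3-month level. That wild-type step, -0.79 ± 0.33, did not pass, and it was 0.19 ± 0.29 in the dimmer probe set. The 8-month change was 1.34 ± 0.33, but 0.75 without knockout replicate 1 and, without wild-type replicate 1, 1.27 and short of the threshold (limma, adjusted p = 0.0648). The 8-month effect exceeded the 3-month effect by 1.75 ± 0.46, which did not pass. The dimmer Nptx2 probe set read 109.3, 39.5 and 29.2 in 8-month knockouts, against 41.4, 50.2 and 43.9 in wild types. There the groups overlapped and the change was 0.05 ± 0.30, after -0.57 ± 0.29 at 3 months and -0.59 ± 0.29 at 5 months. The probe sets therefore disagree at 8 months except in replicate 1, which was high in both.

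**Figure D3:**
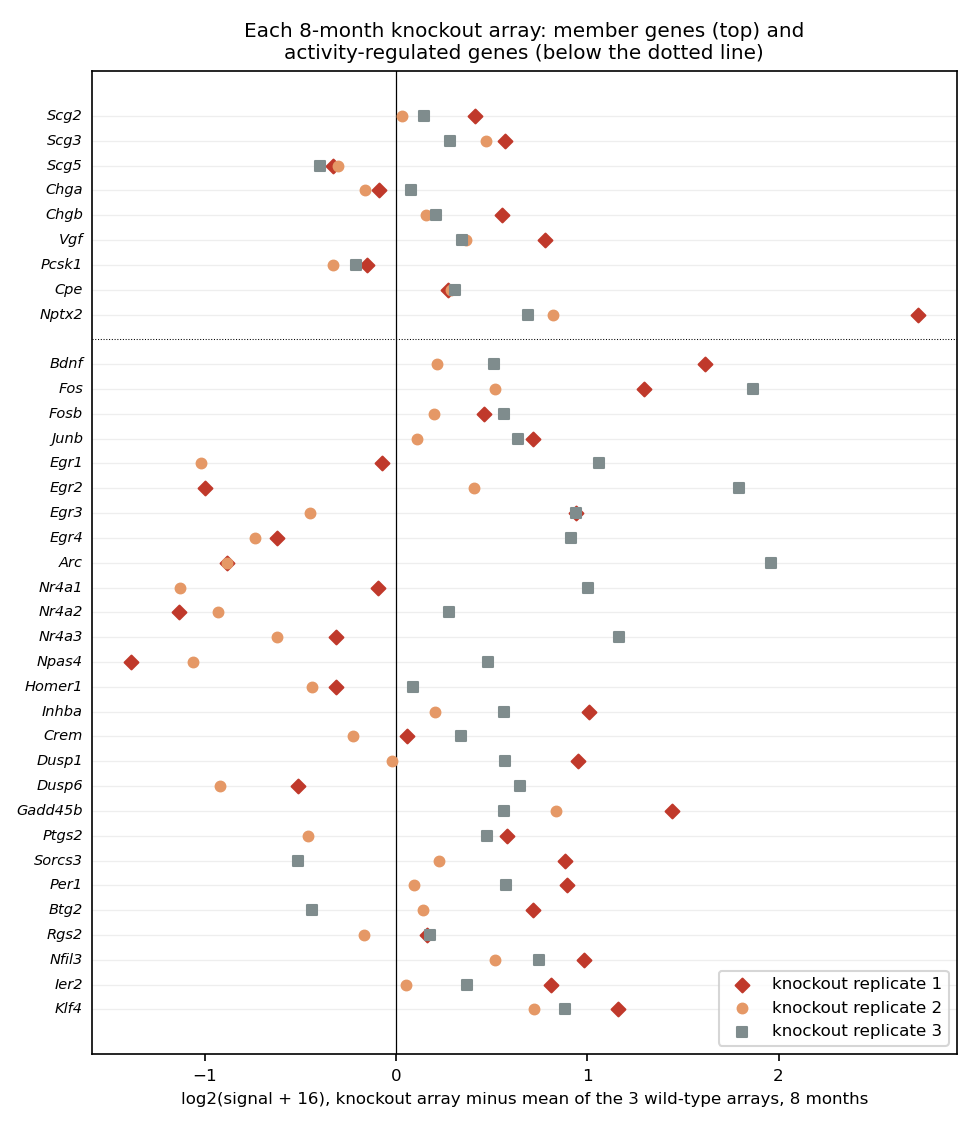
Log2(signal + 16) of each 8-month knockout array minus the mean of the 3 wild-type arrays of that age, for 9 members above the dotted line and 27 activity-regulated genes below it. Replicate 1 (diamonds) lies far to the right for Nptx2, at a signal of 411.1, and replicate 3 (squares) for Arc, at 505.6.

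Replicate 1 of the 8-month knockouts was high for a subset of members. Relative to the mean of replicates 2 and 3 it was higher by 1.97 log2 units for Nptx2, where 0.0629% of tested probe sets were at least as high. The same difference was 1.32 for the dimmer Nptx2 probe set, 0.42 for Vgf, 0.37 for Chgb and 0.33 for Scg2. For Scg5, Cpe and Chga it was 0.02, -0.02 and -0.05. Bdnf, the neurotrophin released from dense-core vesicles, read 404.0, 143.1 and 179.5 in 8-month knockouts, against 133.7, 108.1 and 122.9 in wild types. Arc, an immediate-early gene, went the other way and read 56.6, 56.4 and 505.6 in knockouts, against 116.0, 109.0 and 129.1 in wild types, so that replicate 3 was the high one. Bdnf and Arc were named after their values were seen.

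The age step is described for each genotype. In knockouts 4 of the 10 probe sets passed between 8 and 3 months, Scg3, Chgb, Vgf and Cpe, all higher, where 5.62% of all probe sets passed in either direction and 2.9% passed higher. Of the fits that left out 1 array, 3 lost the call for Chgb (0.19 to 0.29), 4 for Cpe (0.25 to 0.30) and 4 for Vgf (0.25 to 0.48). After quantile normalization the Cpe step was 0.02, against 0.28 ± 0.07 otherwise, and did not pass (limma, adjusted p = 0.791). In wild types 0 passed, where 0.0296% did, and 2 had an unadjusted p under 0.05. The difference between the genotype effects at 8 and 3 months passed for 2, Scg3 and Vgf, where 1.04% did. Sex moved 0 of the 10, with 0 also at an unadjusted p under 0.05, where 0.0703% of probe sets passed (limma). The age comparisons share arrays with the genotype comparisons. The members were also selected with these age differences known, so nothing is read from these counts.

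Other genes of the same pathway had more lower than higher calls. Of 27 tested genes for vesicle biogenesis, processing, trafficking and release, 1 passed higher and 6 lower for the mean over ages, where 8.39% and 6.43% of genes did. Their median change was -0.06, against -0.01 over all genes. Baiap3, a release factor of the Munc13 family, was higher by 0.41 ± 0.08 (limma, adjusted p = 0.00118). Rab27b and Rab3a, small GTPases of secretory vesicles, changed by -0.26 ± 0.05 and -0.16 ± 0.03, and Syt4, a vesicle synaptotagmin, by -0.19 ± 0.04, all called lower. At 8 months 5 passed lower, where 5.95% did. Pcsk1n, whose product proSAAS inhibits prohormone convertase 1/3, read 1800.8, 1640.0 and 1877.6 in 8-month knockouts, against 2222.9, 2212.8 and 2030.1 in wild types, with no overlap, a change of -0.31 ± 0.07 (limma, adjusted p = 0.00642).

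Several neuropeptide precursors, the cargo of these vesicles, were lower in knockouts. Of 25 tested, 4 passed lower for the mean over ages, where 6.43% of genes did, namely Vip, Cck, Penk and Grp, at -0.48 ± 0.06, -0.42 ± 0.06, -0.17 ± 0.04 and -0.26 ± 0.08. At 8 months 3 passed lower, where 5.95% did, Cck at -0.51 ± 0.11, Vip at -0.34 ± 0.10 and Pomc at -0.68 ± 0.21. The median of the 25 was -0.10 for the mean over ages and 0.06 at 8 months.

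Activity-regulated genes had more higher than lower calls over all ages. Of 27 tested, 10 passed higher and 1 lower for the mean over ages, where 8.39% and 6.43% of genes did, with a median of 0.25. Fos, the immediate-early transcription factor, was higher by 1.42 ± 0.16 (limma, adjusted p = 1.51e-06), Dusp1 by 0.71 ± 0.10, Ier2 by 0.59 ± 0.09 and Gadd45b by 0.63 ± 0.10. At 8 months 5 passed higher, where 6.97% of genes did, with Gadd45b at 0.89 ± 0.18, Klf4 at 0.86 ± 0.21 and Fos at 1.05 ± 0.28. Between 8 and 3 months in knockouts 4 passed lower, where 2.12% of genes did, with a median of -0.26. Vgf was higher over the same step. Of 5 pentraxin partners and AMPA receptor genes, 3 passed lower for the mean over ages, where 6.43% of genes did, the receptor subunits Gria2, Gria3 and Gria4, at -0.17 ± 0.04, -0.28 ± 0.06 and -0.22 ± 0.05.

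**Figure D4:**
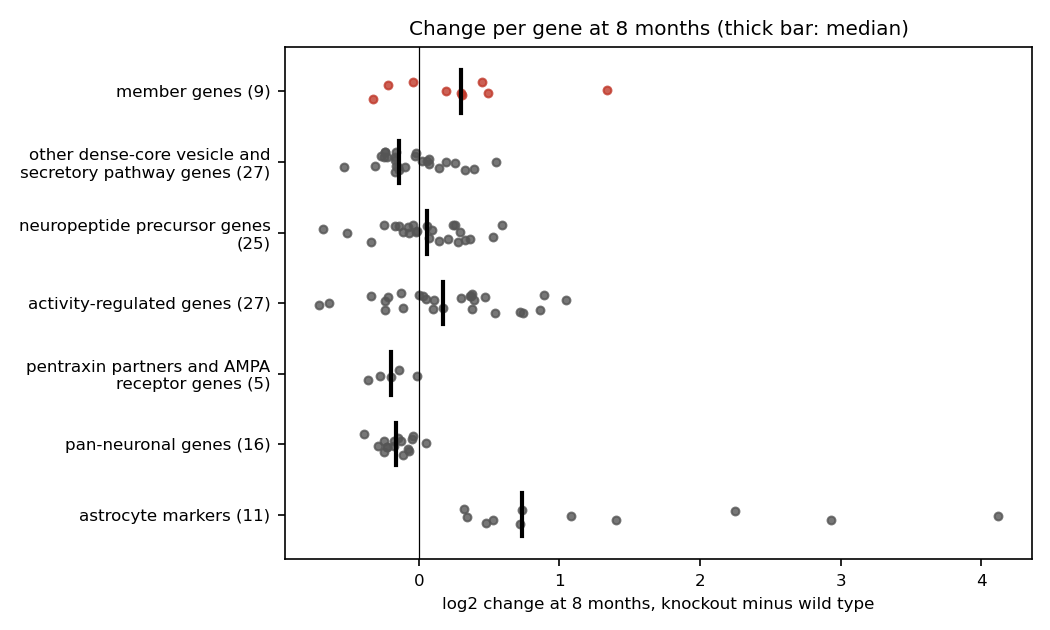
Log2 change at 8 months, knockout minus wild type, of each tested gene among the members (red), in 5 lists and in the astrocyte markers, with the number of genes in brackets. Points are genes and thick bars are medians, 0.30 for the members, -0.14 for other dense-core vesicle genes and 0.17 for activity-regulated genes.

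In 8-month knockouts, markers of other cells were called, and summed signals of some brain regions lay apart from wild type. Of 11 astrocyte markers, 9 passed higher for the mean over ages and 10 at 8 months, where 8.39% and 6.97% of genes did. Their summed signal was 21803 to 31504 in 8-month knockouts, against 12360 to 13057 in wild types. Gfap, the astrocyte filament protein, read 6313, 6303 and 4122 in 8-month knockouts, against 675, 745.5 and 729.5 in wild types. Of 10 microglial markers, 8 passed higher for the mean over ages, where 8.39% did, and their summed signal was 5525 to 10097 in 8-month knockouts, against 3376 to 3569 in wild types. Of 16 pan-neuronal genes, 5 passed lower at 8 months, where 5.95% did, with a summed signal of 43217 to 48562 in knockouts, against 50869 to 51039 in wild types. Of 7 cortical neuron markers, 3 passed lower at 8 months, where 5.95% of genes did. Their summed signal was 2803 to 3830 in knockouts, against 4295 to 5073 in wild types. Of 6 striatal neuron markers, 1 passed lower at 8 months, where 5.95% did. Their summed signal was 2152 to 2251 in knockouts, against 2414 to 2603 in wild types. Hypothalamus is a region rich in dense-core vesicles. The summed signal of 9 hypothalamus markers was 1186 to 1489 in 8-month knockouts, against 1105 to 1178 in wild types, with no overlap. Of the 7 hypothalamus markers tested, 0 passed higher and 0 lower at 8 months, where 6.97% and 5.95% of genes did. Their median change was 0.15. Among them Avp, the vasopressin precursor, read 262.7, 261.3 and 153.3 in knockouts, against 134.4, 186.5 and 193.6 in wild types. Pmch, the melanin-concentrating hormone precursor, read 715.3, 689.8 and 566.3 in knockouts, against 539.8, 532.0 and 577.6 in wild types. Both were high in replicates 1 and 2 and overlapped wild type in replicate 3, and they were named after their values were seen. Of 8 cerebellar markers, 4 passed lower at 8 months, where 5.95% of genes did, and 7 had a negative and 1 a positive change. The cerebellar sum, in rising order, was 9387, 9393 and 13355 in 8-month knockouts, against 13479 to 14427 in wild types. Pcp2, called lower, read 781.0, 700.1 and 1576.2 in knockout replicates 1, 2 and 3, against 1395.8, 1780.2 and 1490.5 in wild types. In whole tissue, fewer neurons and less RNA per neuron cannot be told apart, and the part of these cell-type and region markers in the member results was not tested. Replicate 3 had the lowest glial signal of the 8-month knockouts. It was also the lowest of the 3 for Scg3, Scg5, Vgf and both Nptx2 probe sets. For Scg2, Chgb and Pcsk1 it lay in the middle. It was the highest for Chga and for Cpe, whose 3 values differed little. Whether these ranks are linked to the glial signal was not tested.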

How the data were processed

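The values were linear probe-set intensity, and the deposited intensities were already scaled by the authors to a trimmed mean of 150 on each array, judged from the values. The software, background correction and genome build were not given in the sources used here. Platform annotation gave 1 symbol to 34958 probe sets, several to 932 and none to 9211. The members and lists were chosen with earlier results of these data known. From the deposited signals, log2(signal + 16) was taken, 64 control probe sets and the lowest 40% by mean were removed, and 27025 probe sets were tested with limma 3.58.1 in R 4.3.3 (6 groups plus sex, trend, Benjamini-Hochberg, two-sided, threshold 0.05). Lists used the brightest probe set of each of 12496 genes. Background on an array was the 95th percentile of 27 bacterial control probe sets. Named genes were all members and, in each list, up to 4 of the smallest p for the mean over ages and up to 3 at 8 months. Alternatives covered normalization, pseudocount, filter, sex term, variance trend, array weights and leaving out arrays. The fit was tested on simulated data with added changes of 0.25, 0.5 and 1 log2 units, 50 probe sets each. It recovered 2, 20 and 68% of them at 8 months, and 18, 64 and 94% for the mean over ages. No 2 arrays were identical. The number of arrays limits precision.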

Additional observations from a re-analysis of the deposited data

Results flagged for a closer look

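The genotype effect differed between ages for a pair of members by the interaction term of the fit. For Scg3 the knockout effect at 8 months exceeded that at 3 months by 0.45, and for Vgf by 0.89. Both were selected with these results known, so neither is independent evidence. The Scg3 difference missed the threshold in 11 of the 18 fits that left out 1 array (0.38 to 0.48). It also missed it under median centring and with no filter on low values, where Vgf passed. Without the variance trend neither difference passed. The fit without 8-month knockout replicates 1 and 2, which leaves 1 array, is described below.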

How the results depend on the processing

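No paired analysis was possible because the labels give each sample its own number. None of the 16 called member results changed sign under the 28 alternatives, whereas 15 of the 56 that were not called did in at least 1, Chga at 8 minus 3 months (0.08, and -0.17 to 0.37 with 1 array left out) among them. Without 8-month knockout replicates 1 and 2, which leaves 1 array assumed to vary like the others, member probe sets called numbered 1 at 3 months, 1 at 8 months, 0 for the difference between 8- and 3-month effects, 1 for the wild-type age step and 0 for the knockout one, and calls at 8 months were 1 for other vesicle genes, 0 for neuropeptides, 0 for pentraxin partners and 0 for pan-neuronal genes. For members over all ages, quantile normalization, the 60% filter and no sex term each gave 4. For members at 3 months array weights gave 1. At 5 months median centring and no filter gave 1 and no variance trend 0, and the difference between effects gave the same 1, 1 and 0. For the knockout age step quantile normalization gave 2 (Cpe 0.02), and no filter and no trend 1. At 8 months pentraxin partners had 2 under median centring, a pseudocount of 64, the 60% filter, no sex term and array weights, and 0 under no filter and no trend. Other vesicle genes had 2, 1 and 8 under no filter, no trend and array weights, neuropeptides 1 under no filter, activity genes 2 and 8 under no trend and array weights, and pan-neuronal genes 1 under no trend (3 for the mean over ages). Leaving out 1 array at a time gave 2 to 3 members called over all ages, 0 to 1 at 3 months, 0 to 2 at 5 months, 4 to 6 at 8 months, 1 to 3 for the difference, 0 to 1 for the wild-type and 1 to 6 for the knockout age step. The same ranges for the lists, over all ages and at 8 months, were 4 to 10 and 0 to 7 for other vesicle genes, 3 to 4 and 0 to 7 for neuropeptides, 9 to 14 and 2 to 12 for activity genes, 3 to 4 and 0 to 2 for pentraxin partners, and 4 to 8 and 1 to 7 for pan-neuronal genes. The cause was not tested. Of the 16 called results, 13 lost the call under at least 1 alternative, in 67 of 448 combinations of result and alternative. With 3 arrays a group, a member short of the threshold is not shown to be unchanged.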

Other observations

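Genes whose level across the 18 arrays was most like that of Nptx2, Vgf and Scg2 were listed as a description, from 12496 genes and with group differences included. For Nptx2 these were Cdkn1a (Pearson r = 0.92, and 0.72 without 8-month knockout replicate 1), Trp53inp1 (0.92 and 0.70) and Spns2 (0.91 and 0.77). For Vgf they were Nde1 (0.88 and 0.83), Spns2 (0.87 and 0.87) and Slc2a1 (0.86 and 0.82). For Scg2 they were Trnp1 (0.82 and 0.60), Fibin (0.78 and 0.61) and Nudt17 (0.77 and 0.73).

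Among neuropeptide precursors, Npy and Avp differed between ages in knockouts. Npy was higher at 8 than at 3 months by 0.51 ± 0.12 (limma, adjusted p = 0.0200), and read 1641.5, 1066.7 and 994.2 in 8-month knockouts, against 758.8, 872.4 and 897.9 in 3-month knockouts. Avp was higher by 0.78 ± 0.19 (limma, adjusted p = 0.0182). Both were named after their values were seen.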
